A study of Homo sapiens with 6 samples.

Results

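RNA sensors and their adaptors were followed here in irradiated HCT116 cells, a human colorectal carcinoma line of epithelial origin. The members are 10 genes of the 20020 in the count table, found by their gene symbols and not by any measured value: RIGI, IFIH1, DHX58, TLR3, ZBP1, EIF2AK2, MAVS, TICAM1, TRIM25 and ADAR. In RNA-seq, CAD-KO2 cells, expressing a guide RNA against the nuclease CAD (caspase-activated DNase, encoded by DFFB), were compared with sgVec cells, the vector control. Both groups were harvested 24 h after 8 Gy of ionizing radiation (IR), a dose and time given in the paper and not in the sample labels, and each group had 3 libraries. No unirradiated library was analysed here, so the response to IR itself cannot be read from these values. The knockout stands for 1 guide in 1 cell line, and whether the cells were a clone or a pool, and whether the libraries came from separate cultures, is not given in the sources used here. The p-values therefore measure the spread between these libraries, which may be technical.

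Cells detect RNA that looks foreign, mainly double-stranded RNA, with several classes of protein. The helicases RIG-I (RIGI) and MDA5 (IFIH1) act in the cytosol through the mitochondrial adaptor MAVS, while TLR3 acts in endosomes through the adaptor TRIF (TICAM1). Both routes lead to the kinase TBK1 and the production of type I interferon, and interferon in turn induces many of the sensors through a promoter element called the ISRE. LGP2 (DHX58) is a related helicase that modulates the other RIG-I-like receptors, TRIM25 is a ubiquitin ligase that acts on RIG-I, and ZBP1 binds Z-form nucleic acids and signals to cell death. PKR (EIF2AK2) stops translation by phosphorylating eIF2α when it binds double-stranded RNA, and ADAR edits adenosines of the cell's own double-stranded RNA, which keeps it from triggering these sensors.

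Promoter sequences are shown because the members are known as interferon-inducible or constitutive genes, and the core of the ISRE can be read from their letters. RefSeq promoter windows of GRCh38.p14, 250 bases before to 50 bases after the transcription start, were found for 8 members. DHX58 and ZBP1 had no entry. The core was searched as GAAANNGAAA on either strand, so that it reads TTTCNNTTTC where it lies on the strand opposite to the gene. It was found in the windows of IFIH1, TLR3 and EIF2AK2, and in no window of RIGI, MAVS, TICAM1, TRIM25 or ADAR, for which 3 windows were given. Of all 35116 windows in the table, 1255 (3.57%) held it, and of the 21675 windows of genes in the count table, 685 (3.16%) did. The stretches that carry it are printed 5′ to 3′ on the strand of the gene, with the core in capitals.
IFIH1, chr2:162318676-162318863, reverse strand: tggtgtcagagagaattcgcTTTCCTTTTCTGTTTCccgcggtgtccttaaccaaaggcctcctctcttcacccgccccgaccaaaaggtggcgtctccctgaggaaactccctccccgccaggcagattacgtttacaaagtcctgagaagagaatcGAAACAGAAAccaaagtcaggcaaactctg
TLR3, chr4:186069132-186069181, forward strand: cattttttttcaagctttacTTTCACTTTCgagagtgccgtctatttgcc
EIF2AK2, chr2:37156957-37157006, reverse strand: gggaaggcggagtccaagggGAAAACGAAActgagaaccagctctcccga
IFIH1 held 3 matches, of which those starting at −159 and −153 from the transcription start overlap by one TTTC and the last starts at −21. The match of TLR3 starts at −4 and that of EIF2AK2 at −6. A match describes the letters of the window and is not a measured binding site. A window without a match lacks only this exact core, since other forms of the ISRE were not searched.

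The libraries were not equally alike, which touches most members. Counts on genes summed to 14032994 to 19574144 per library, and 12925 genes had enough counts to be tested. Across genes, log2 CPM (counts scaled to the size of the library) of sgVec+IR replicate 3 correlated with the other 5 libraries at a Pearson r of 0.886 to 0.927, and that of CAD-KO2+IR replicate 2 at 0.927 to 0.975. In sgVec+IR replicate 3, 214 genes had no count although each of the other libraries had at least 20, and no other library had such a gene. The 7 epithelial markers summed to 2070 to 4010 CPM over the 6 libraries, mostly from KRT8 and KRT19. Of the same list, VIL1 had at most 3 counts and CDH17 at most 15 in any library. CDH1 was at 66.7 ± 2.95 CPM in CAD-KO2+IR against 97.1 ± 2.90 CPM in sgVec+IR (SD, n = 3 each). Its groups did not overlap, as in 10.2% of all genes tested. All 5 leukocyte markers lay under 1 CPM. The 4 fibroblast markers summed to 25.5 to 38.7 CPM in CAD-KO2+IR against 12.0 to 47.8 CPM in sgVec+IR, mostly from COL1A1, with DCN and LUM at 0 in all libraries. The endothelial markers summed to 0.685 to 1.54 CPM in CAD-KO2+IR against 2.57 to 6.07 CPM in sgVec+IR, mostly from VWF, and their part in the results was not tested. DFFB, the targeted gene, was at 10.8 ± 1.32 CPM in CAD-KO2+IR against 21.9 ± 0.995 CPM in sgVec+IR (SD, n = 3 each), lower in every knockout library, at a log2 fold change of −1.02 (standard error, SE, 0.193, edgeR adjusted p = 0.550). In DESeq2 the change of DFFB was −1.01 with an adjusted p of 0.00187, and the adjusted p was 0.000135 in limma-voom with sample weights. DFFA, which encodes the inhibitor of CAD, had 0.03 (SE 0.135). Since one control library stood so far apart, each member is given with all 6 libraries and without sgVec+IR replicate 3.

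Levels of the 10 members covered a wide range. Per kilobase of annotated exon (CPM per kb, averaged over the 6 libraries), ADAR was the highest at 55.7, above 95.3% of the genes tested. It was followed by MAVS at 30.3, TRIM25 at 23.3, TICAM1 at 13.9 and EIF2AK2 at 12.6. The RIG-I-like receptors and TLR3 came lower, with IFIH1 at 3.12, TLR3 at 0.766, DHX58 at 0.299 and RIGI at 0.285, the last above 5.68% of the genes tested. Neighbours in this order whose libraries overlapped were MAVS and TRIM25, TICAM1 and EIF2AK2, TLR3 and DHX58, and DHX58 and RIGI. All other neighbours of this order, in which ZBP1 is not placed, were separate in these 6 libraries. ZBP1, at 0 to 0.0127, overlapped with RIGI, which was at 0 in sgVec+IR replicate 3. Thus the editor, the adaptors and the kinase were well counted, while RIGI, DHX58 and ZBP1 rested on few reads. In bulk RNA, fewer cells that express a gene and less RNA per cell cannot be told apart.

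In CAD-KO2+IR none of the members was a differentially expressed gene (DEG, here a gene with an adjusted p under 0.05 that differed at least 1.5-fold). Of all 12925 genes tested with edgeR's quasi-likelihood test, 4 were DEGs (0.0309%), and of the 9 members tested, 0. At an unadjusted p under 0.05 the numbers were 368 of all genes (2.85%) and 0 of the 9. DESeq2 called 41 of 16728 genes (0.245%) and 0 of the 10 members. limma-voom with sample weights, where sgVec+IR replicate 3 weighed 0.0404 and CAD-KO2+IR replicate 2 weighed 0.154, called 666 genes (5.15%) and 0 of the 9. With so few calls over all genes, none among 9 genes says little about the members. Their log2 fold changes ran from −0.79 to 0.70, with 5 above 0 and 4 below and a median of 0.04, beside a median of −0.01 over all genes tested. Every one of the 9 had an edgeR adjusted p of 1 with all 6 libraries. The members whose 2 groups did not overlap in CPM were also 0 of 9, against 1324 of all genes (10.2%).

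**Figure D1:**
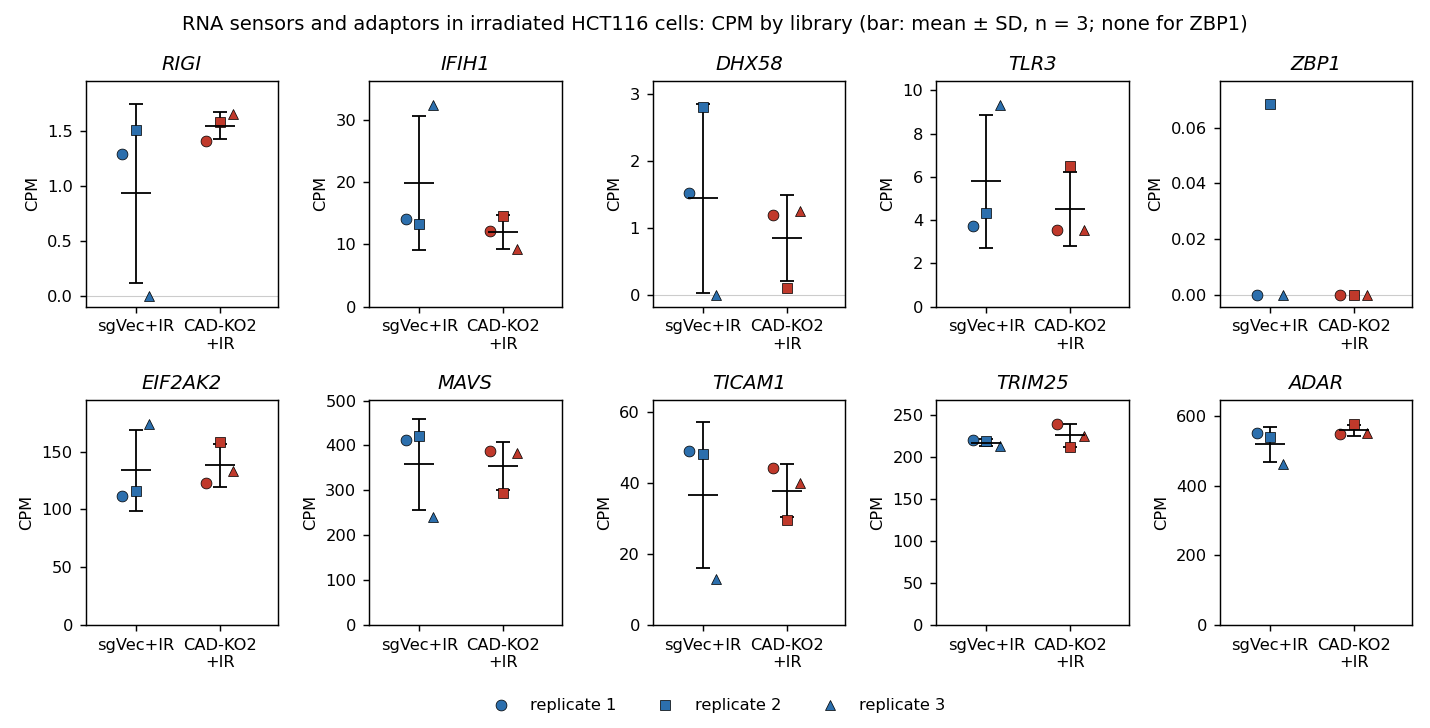
CPM (linear axes from about 0, 1 scale per gene) of each member in the 3 sgVec+IR (blue) and 3 CAD-KO2+IR (red) libraries, with circles, squares and triangles for replicates 1, 2 and 3 in both colours, and the mean ± SD in black except for ZBP1. The groups of every tested member overlap, and sgVec+IR replicate 3 is the highest for IFIH1 (32.4), TLR3 (9.31) and EIF2AK2 (174) and the lowest for RIGI (0), DHX58 (0), MAVS (241), TICAM1 (12.9) and ADAR (463).

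Among the cytosolic helicases, RIGI (ENSG00000107201.11, chromosome 9, 32455705 to 32526324, reverse strand) was scarce. In the order of replicates 1 to 3, CAD-KO2+IR gave 26, 30 and 29 counts and sgVec+IR gave 21, 22 and 0. At 1.41, 1.58 and 1.65 CPM, the knockout libraries lay close to the first 2 control libraries, at 1.28 and 1.51 CPM. The 0 in sgVec+IR replicate 3, which at 3 counts allows up to 0.212 CPM, made RIGI one of the 214 genes that were missing there. The log2 fold change was 0.70 (SE 0.708, 95% confidence interval −0.98 to 2.38, edgeR) with all 6 libraries and 0.15 (SE 0.340) without that library. The first of these values rests on the library with no count and depends on how a 0 is treated, reaching 1.84 in limma-voom.

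IFIH1 (ENSG00000115267.10, chromosome 2, 162267079 to 162318703, reverse strand), whose product MDA5 recognises long double-stranded RNA, was the best counted of the RIG-I-like receptors. Its level was 12.1, 14.6 and 9.28 CPM in CAD-KO2+IR against 14.1, 13.3 and 32.4 CPM in sgVec+IR. The third control library was far above the rest, and the other 5 overlapped. The means were 12.0 ± 2.66 and 19.9 ± 10.8 CPM (SD, n = 3 each), for a log2 fold change of −0.72 (SE 0.398, 95% confidence interval −1.67 to 0.22, edgeR). Without sgVec+IR replicate 3 it was −0.19 (SE 0.221, adjusted p = 0.659). IFIH1 was lower in CAD-KO2+IR in the 18 alternative fits, from −0.94 to −0.19, all of which share libraries. In limma-voom with sample weights its adjusted p was 0.0201 at a log2 fold change of −0.48, which is under the fold change of 1.5.

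DHX58 (ENSG00000108771.13, chromosome 17, 42101404 to 42112733, reverse strand), which encodes LGP2, had 22, 2 and 22 counts in CAD-KO2+IR and 25, 41 and 0 in sgVec+IR. Thus 1 library of each group was nearly empty, and the other 4 ran from 1.19 to 2.81 CPM. Its range within sgVec+IR, 4.61 on the log2 CPM scale with a prior count, was wider than that of 98.6% of the genes tested, and its range within CAD-KO2+IR, 2.61, was wider than that of 99.7%. The log2 fold change was −0.79 (SE 1.01, 95% confidence interval −3.18 to 1.60, edgeR) and −1.34 (SE 0.652) without sgVec+IR replicate 3. Without sgVec+IR replicate 2 it was 0.05.

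TLR3 (ENSG00000164342.14, chromosome 4, 186069152 to 186088069, forward strand), the endosomal receptor, was at 3.52, 6.48 and 3.53 CPM in CAD-KO2+IR against 3.73, 4.31 and 9.31 CPM in sgVec+IR. The second knockout library and the third control library were the high ones, and the other 4 lay together. With all 6 libraries the log2 fold change was −0.34 (SE 0.454, 95% confidence interval −1.41 to 0.74, edgeR), and without sgVec+IR replicate 3 it was 0.18 (SE 0.341). The direction thus turned on that library, and with CAD-KO2+IR replicate 2 left out as well it was −0.18.

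ZBP1 (ENSG00000124256.15, chromosome 20, 57603846 to 57620576, reverse strand) was counted once in all, in sgVec+IR replicate 2, and was too low to test. A count of 0 in the 3 CAD-KO2+IR libraries allows up to 0.0546 CPM, from 3 counts over the summed group. In the table, 19.1% of all genes had a total of at most 1 count. RIPK3, the kinase that ZBP1 engages in necroptosis, had no count in any library. MLKL, which RIPK3 phosphorylates to rupture the membrane, was at 18.3, 16.2 and 18.0 CPM in CAD-KO2+IR against 14.8, 12.9 and 9.45 CPM in sgVec+IR. Its groups did not overlap, which was also so for 10.2% of all genes tested. The log2 fold change of MLKL was 0.49 (SE 0.227, edgeR unadjusted p = 0.0665), and 0.34 (SE 0.169) without sgVec+IR replicate 3.

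EIF2AK2 (ENSG00000055332.19, chromosome 2, 37099210 to 37157065, reverse strand), the gene of the kinase PKR, was at 123, 158 and 133 CPM in CAD-KO2+IR against 111, 116 and 174 CPM in sgVec+IR. Again the second knockout library and the third control library were the highest of their groups. The means of 138 ± 18.4 and 134 ± 35.1 CPM (SD, n = 3 each) gave a log2 fold change of 0.05 (SE 0.223, 95% confidence interval −0.48 to 0.57, edgeR). Without sgVec+IR replicate 3, every knockout library lay above both remaining controls and the log2 fold change was 0.28 (SE 0.150, adjusted p = 0.444). In limma-voom with sample weights the adjusted p was 0.0338 at a log2 fold change of 0.21, under the fold change of 1.5. EIF2AK2 overlaps GPATCH11 on the opposite strand, and since the strand setting of the counting is not given, reads of the shared stretch cannot be assigned with certainty.

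Of the 2 adaptors, MAVS (ENSG00000088888.18, chromosome 20, 3846799 to 3876123, forward strand) was the more abundant per kilobase. Its level was 387, 293 and 383 CPM in CAD-KO2+IR against 412, 422 and 241 CPM in sgVec+IR, with the second knockout library and the third control library the lowest of their groups. The means were nearly equal, 355 ± 52.9 and 358 ± 102 CPM (SD, n = 3 each), and the log2 fold change was −0.02 (SE 0.246, 95% confidence interval −0.60 to 0.57, edgeR). Leaving out sgVec+IR replicate 3 gave −0.23 (SE 0.146, adjusted p = 0.473), with both remaining control libraries above all knockout libraries.

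TICAM1 (ENSG00000127666.11, chromosome 19, 4815932 to 4831704, reverse strand), which encodes TRIF, also had the second knockout library and the third control library lowest in their groups, with a wider spread. It was at 44.1, 29.4 and 39.9 CPM in CAD-KO2+IR against 48.9, 48.1 and 12.9 CPM in sgVec+IR. The means were 37.8 ± 7.55 and 36.7 ± 20.6 CPM (SD, n = 3 each). The log2 fold change went from 0.04 (SE 0.467, 95% confidence interval −1.06 to 1.14, edgeR) to −0.36 (SE 0.191, adjusted p = 0.444) without sgVec+IR replicate 3.

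TRIM25 and ADAR were the steadiest members. TRIM25 (ENSG00000121060.19, chromosome 17, 56836387 to 56914080, reverse strand) was at 240, 212 and 226 CPM in CAD-KO2+IR against 220, 219 and 213 CPM in sgVec+IR. Its range of 0.05 on the log2 scale within sgVec+IR was wider than that of 0.874% of the genes tested, where the median gene had 0.81. The log2 fold change was 0.06 (SE 0.133, 95% confidence interval −0.26 to 0.37, edgeR), and 0.04 without sgVec+IR replicate 3. It overlaps C17orf67 on the same strand and DGKE on the opposite one, so reads of the shared stretches are uncertain.

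ADAR (ENSG00000160710.18, chromosome 1, 154582057 to 154628013, reverse strand) was at 550, 579 and 553 CPM in CAD-KO2+IR against 554, 542 and 463 CPM in sgVec+IR. The third control library was the lowest, and the other 5 lay within a narrow band. Its log2 fold change was 0.11 (SE 0.131, 95% confidence interval −0.20 to 0.42, edgeR) with all libraries and 0.04 without sgVec+IR replicate 3. For these 2 genes the intervals lie inside a fold change of 1.5 in either direction. That of EIF2AK2, −0.48 to 0.57, does so as well, while the intervals of the other tested members do not.

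**Figure D2:**
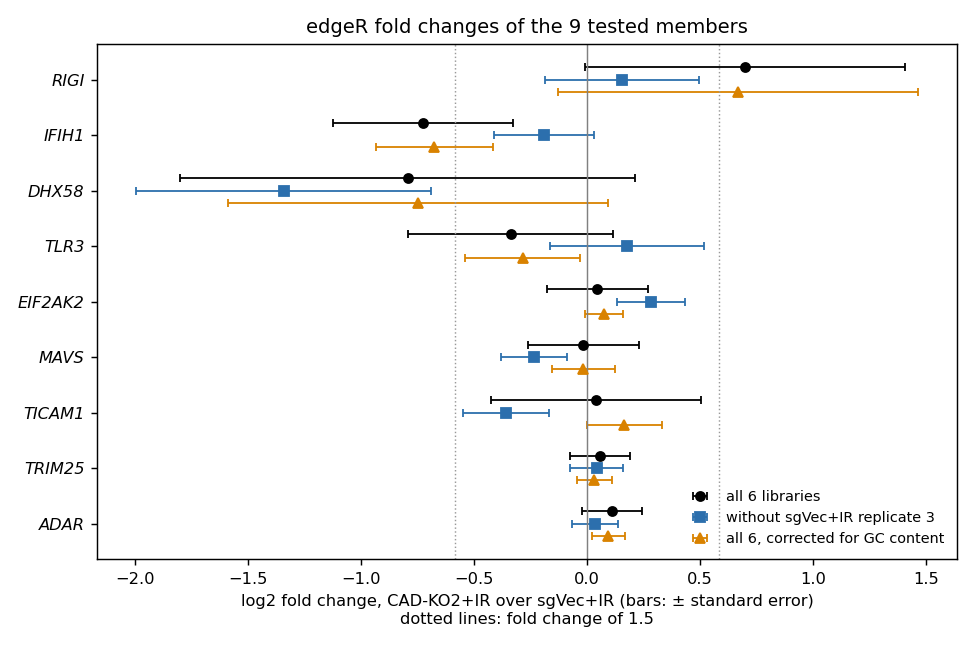
Log2 fold change (x axis, CAD-KO2+IR over sgVec+IR, bars ± SE, edgeR) of the 9 tested members with all 6 libraries (black circles), without sgVec+IR replicate 3 (blue squares) and after correction for GC content (orange triangles). TRIM25 and ADAR stay close to 0 in all 3, IFIH1 moves from −0.72 to −0.19 and TICAM1 from 0.04 to −0.36 without the library, and dotted lines mark a fold change of 1.5.

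Leaving out sgVec+IR replicate 3 called 22 of 13141 genes as DEGs (0.167%) and 0 of the 9 members. The groups of DHX58, EIF2AK2, MAVS and TICAM1 then did not overlap, 4 of 9 members, beside 5972 of all genes (45.4%). With CAD-KO2+IR replicate 2 left out as well, 5 of the 9 members had an unadjusted p under 0.05 in edgeR, which are EIF2AK2 (log2 fold change 0.18, adjusted p = 0.0637) above 0 and MAVS (−0.11), TICAM1 (−0.20), IFIH1 (−0.35, adjusted p = 0.108) and DHX58 (−0.79) below it. The same was true of 3873 of 13059 genes (29.7%), and none of the 5 passed the adjusted threshold. Both of these shares of all genes are high, and the members' shares lie near the first and above the second, with no test of that difference. The groups of 7 of the 9 members then did not overlap, beside 7488 of all genes (57.3%). limma-voom with sample weights put 4 of the 9 members (MAVS, EIF2AK2, TICAM1 and IFIH1) at an unadjusted p under 0.05, beside 4793 of 12925 genes (37.1%), so that this count too lies near that of all genes.

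The deviation of a library from the mean of the 6 followed the GC content of the transcripts. In sgVec+IR replicate 3, most members deviated in the direction of this trend, several of them by more than it. Over all genes with a GC value (12913 of 12925), the median log2 deviation of sgVec+IR replicate 3 was 0.53 in genes with a GC content of 30.2% to 41.3% and −0.94 in genes with 59.0% to 75.8%, the lowest and highest of 5 equal bins. CAD-KO2+IR replicate 2 leaned the same way, from 0.30 to −0.43, and the other 4 libraries leaned the opposite way. Of the members, TLR3 (GC content 37.6%), EIF2AK2 (38.7%) and IFIH1 (43.3%) deviated in sgVec+IR replicate 3 by 0.94, 0.38 and 1.14. TRIM25 (51.1%) and ADAR (49.5%), in the middle of the range, deviated by −0.06 and −0.22. MAVS (52.1%), DHX58 (58.2%) and TICAM1 (63.0%) deviated by −0.54, −2.71 and −1.39. RIGI (40.5%) went against this order, with −3.12. The fitted trend of that library at the member's GC content was smaller in size than the deviation for IFIH1 (0.30), DHX58 (−0.61) and MAVS (−0.21). It was also smaller for TLR3 (0.59), TICAM1 (−0.89) and ADAR (−0.05), and larger for EIF2AK2 (0.54) and TRIM25 (−0.15). In CAD-KO2+IR replicate 2, TLR3 and EIF2AK2 were at 0.43 and 0.24, IFIH1 was at −0.01, and MAVS, TICAM1 and DHX58 were at −0.25, −0.21 and −1.80. The part of GC content in these values was tested only by the correction given next.

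**Figure D3:**
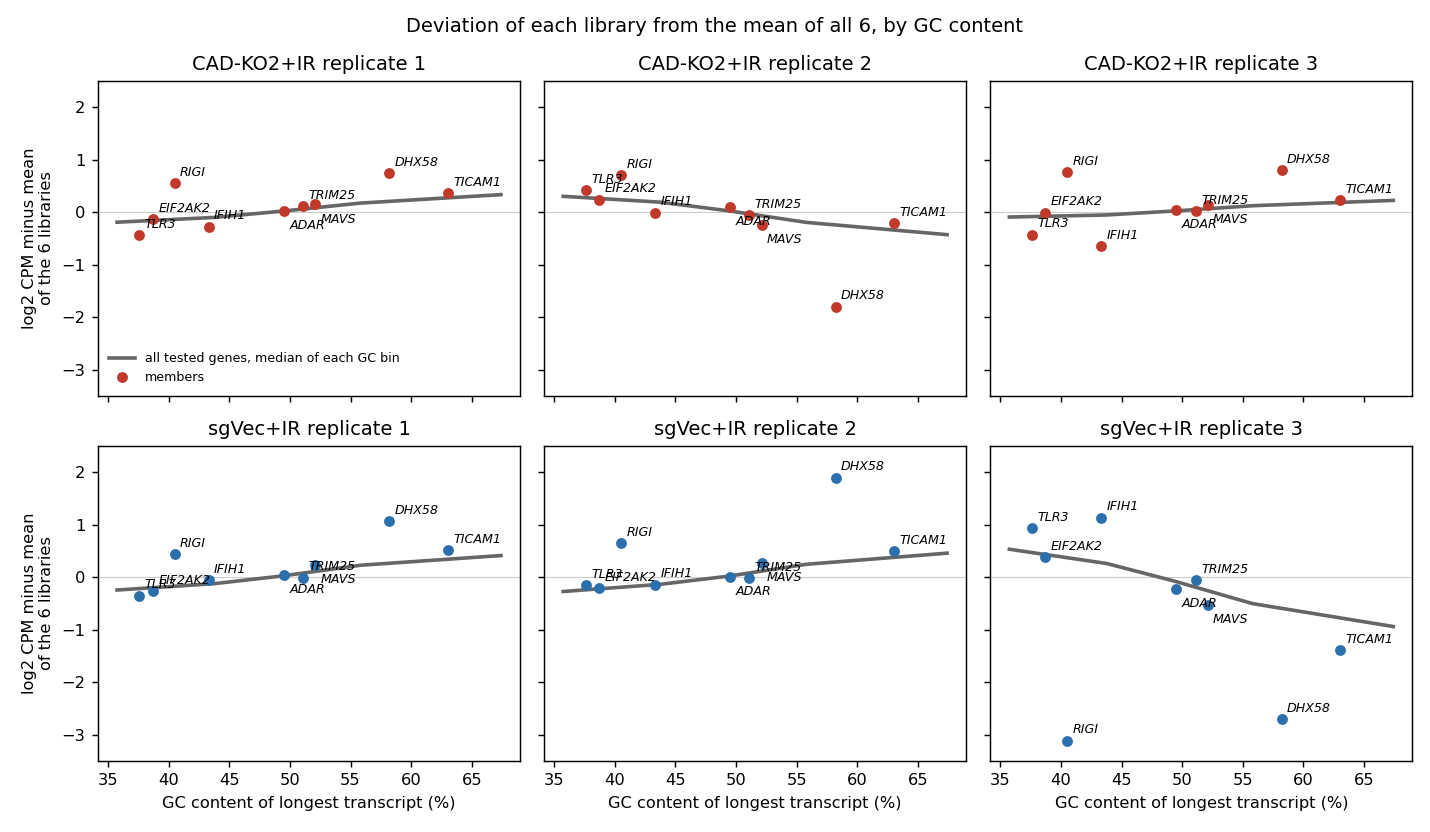
Log2 CPM of each tested member minus its mean over the 6 libraries (y axis) against the GC content of its longest transcript in % (x axis), 1 panel per library, with the median over all tested genes in each of 5 GC bins as a grey line. The line falls from 0.53 to −0.94 in sgVec+IR replicate 3 and from 0.30 to −0.43 in CAD-KO2+IR replicate 2 and rises in the other 4. In sgVec+IR replicate 3, RIGI at −3.12 and DHX58 at −2.71 lie far below it and IFIH1 at 1.14 lies above it.

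When the trend with GC content was removed from each library, several members drew together. EIF2AK2 came to 140, 129 and 142 CPM in CAD-KO2+IR against 132, 140 and 120 CPM in sgVec+IR, TICAM1 to 35.0, 39.8 and 34.2 CPM against 36.8, 35.3 and 24 CPM, and TLR3 to 4.08, 5.23 and 3.79 CPM against 4.48, 5.32 and 6.17 CPM. These 3 still overlapped between groups, as did MAVS, TRIM25, ADAR, RIGI and DHX58. IFIH1 came to 13.0, 12.7 and 9.69 CPM in CAD-KO2+IR against 15.5, 14.7 and 26.4 CPM in sgVec+IR, and was the 1 member of 9 whose groups then did not overlap, beside 2762 of 12913 genes (21.4%). Its log2 fold change was −0.68 (SE 0.259, edgeR unadjusted p = 0.0321, adjusted p = 0.434), the 1 member of 9 with an unadjusted p under 0.05 there, beside 1364 genes (10.6%), and sgVec+IR replicate 3 was still its highest library. The correction left RIGI and DHX58 at 0 in sgVec+IR replicate 3.

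Genes whose pattern over the 6 libraries was most like that of RIGI or IFIH1 were looked up among 9540 genes with a mean of at least 10 CPM, as a description. For RIGI they were RPL36AL (Pearson r of log2 CPM 0.999), NOMO3 (0.998) and INTS9 (0.997). Each of these was lowest in sgVec+IR replicate 3, NOMO3 for example at 2.82 CPM against 16.9 to 20.1 CPM in the other libraries. For IFIH1 they were ZFAND4 (0.991), NDUFA4 (0.990) and MRPS33 (0.988), each highest in that library, with ZFAND4 at 38.2 CPM against 13.4 to 20.5 CPM. These 6 libraries share 1 library that stands apart, which sets such values.

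The other genes of these pathways were described by lists, and no gene of the 7 lists was a DEG in edgeR or DESeq2. Among other RNA-binding antiviral genes, 14 of 18 were tested, 10 above 0 and 4 below, with a median log2 fold change of 0.07, where 48.1% of all genes tested lay above 0. IFIT1, which binds RNA with a foreign 5′ end, was at 12.8, 18.2 and 12.0 CPM in CAD-KO2+IR against 9.23, 9.38 and 5.43 CPM in sgVec+IR. Its groups did not overlap, 1 of the 14 tested genes beside 10.2% of all genes, with a log2 fold change of 0.83 (SE 0.298, edgeR unadjusted p = 0.0266, adjusted p = 1). Without sgVec+IR replicate 3, its lowest library, the log2 fold change of IFIT1 was 0.63 (SE 0.235). With CAD-KO2+IR replicate 2 left out as well it was 0.42 (SE 0.157), under the fold change of 1.5. NLRP1, an inflammasome sensor named after its values were seen, had a log2 fold change of −0.76 (SE 0.319, unadjusted p = 0.0484), and its groups overlapped. The endosomal RNA receptors TLR7 and TLR8 had no count in any library.

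All 20 regulators of RIG-I-like receptors were tested, with 7 above 0, 13 below and a median of −0.12, which was 0.03 without sgVec+IR replicate 3. YWHAE, the adaptor protein that carries activated RIG-I to MAVS, was at 646, 785 and 637 CPM in CAD-KO2+IR against 541, 525 and 552 CPM in sgVec+IR (log2 fold change 0.35, SE 0.137, edgeR unadjusted p = 0.0356). RNF5, a ubiquitin ligase, had a log2 fold change of −0.41 (SE 0.212), and USP21, a deubiquitinase, of −0.37 (SE 0.199). The groups of these 3 genes and of TRIM4 did not overlap, 4 of 20 genes beside the 10.2% of all genes.

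Of the 22 genes that signal downstream of MAVS and TICAM1, 11 were above 0 and 11 below, with a median of −0.01. NFKB1, a subunit of NF-κB, was at 67.3, 57.9 and 69.9 CPM in CAD-KO2+IR against 52.6, 52.4 and 34.8 CPM in sgVec+IR, with a log2 fold change of 0.48 (SE 0.215, edgeR unadjusted p = 0.0607). Its groups did not overlap, which held for 1 of the 22 genes of this list, beside 10.2% of all genes tested. Without sgVec+IR replicate 3 the log2 fold change of NFKB1 was 0.31 (SE 0.146). The partners of TLR3 and ZBP1 had 5 tested genes above 0 and 5 below, with a median of −0.01, which was 0.18 without sgVec+IR replicate 3.

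The eIF2 kinases and the eIF2 cycle, in which PKR acts, had 13 of 16 genes above 0 and a median of 0.15, beside 48.1% above 0 and a median of −0.01 over all genes, with 0 at an unadjusted p under 0.05 in edgeR and 0 DEGs in DESeq2. Without sgVec+IR replicate 3 it had 12 of 16 above 0 and a median of 0.18. EIF2S3, the γ subunit of eIF2, was at 418, 521 and 423 CPM in CAD-KO2+IR against 378, 350 and 409 CPM in sgVec+IR, a log2 fold change of 0.26 (SE 0.150). EIF2B2 and EIF2B1, subunits of the exchange factor that recharges eIF2, had log2 fold changes of 0.26 (SE 0.160) and 0.18 (SE 0.147), and the groups of these 3 of 16 genes did not overlap, beside 10.2% of all genes. Relatives of ADAR and other double-stranded RNA binding proteins had 4 of 7 tested genes above 0 and a median of 0.02, which was 0.12 without sgVec+IR replicate 3, and ADARB2 and ADAD1 had no count. Interferons and interferon receptor signalling had 5 of 9 tested genes above 0 and a median of 0.01, and 4 of 10 above 0 and a median of −0.18 without sgVec+IR replicate 3. IFNB1 was counted once in CAD-KO2+IR and once in sgVec+IR, so that its level was not measurable at this depth.

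**Figure D4:**
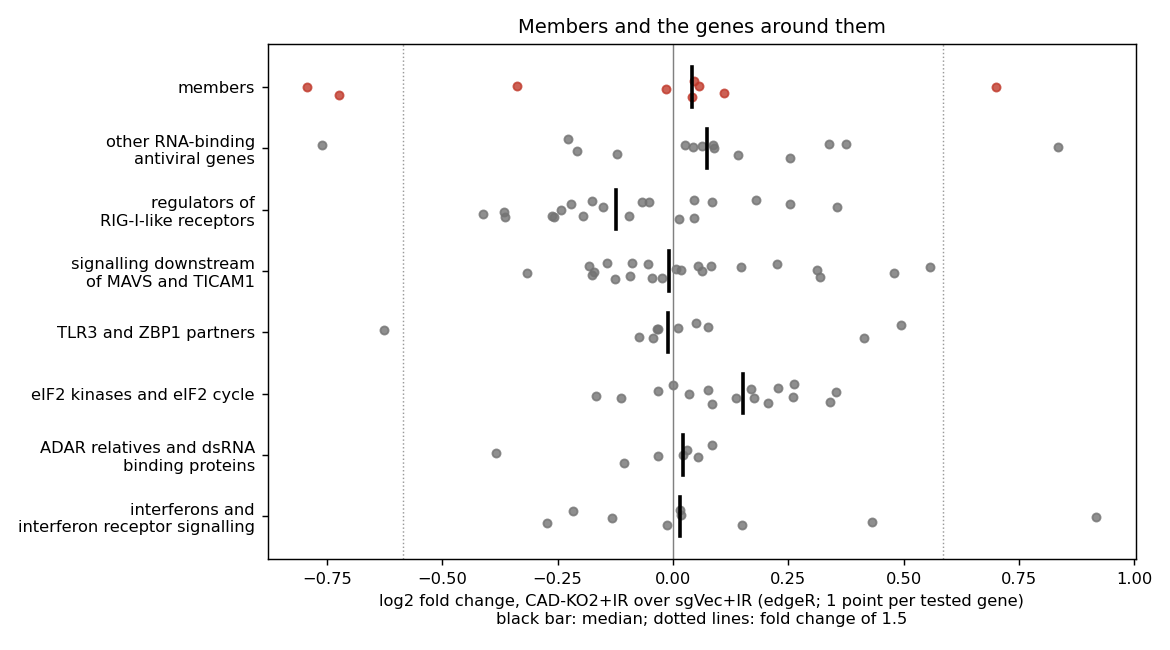
Log2 fold change (x axis, CAD-KO2+IR over sgVec+IR, edgeR, all 6 libraries) of each tested gene of the members (red) and of 7 lists of genes around them (grey), 1 row per list, with a black bar at the median and dotted lines at a fold change of 1.5. The medians run from −0.12 for the regulators of RIG-I-like receptors to 0.15 for the eIF2 list, with the members at 0.04.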

How the data were processed

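The RNA-seq data were 3 CAD-KO2+IR and 3 sgVec+IR libraries of HCT116 cells, grouped by their labels. The authors cleaned the reads (fastp), counted them per gene (featureCounts v1.5.0-p3) and deposited the counts without normalization. The aligner, annotation and strand setting are not given in the sources used here, and the submitters' processing notes name the build mm10 although the gene identifiers are human. The labels list the molecule as genomic DNA but describe libraries made from RNA.

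Genes were kept by filterByExpr (minimum count 10, minimum total 15), counts were scaled by TMM, and groups were compared with the quasi-likelihood test of edgeR 4.0.16 (legacy set to FALSE) in R 4.3.3, with Benjamini-Hochberg adjustment over all genes tested. DESeq2 1.42.0, limma-voom with and without sample weights (limma 3.58.1), other scalings, filters, a replicate block and leaving out each library were alternatives. CPM use TMM-adjusted library sizes. Ranges on the log2 scale use a prior count of 2, and the GC correction is a lowess trend with a span of 0.3. GENCODE release 29 (GRCh38) gave exon lengths, GC content and positions (19823 of 20020 identifiers matched), and RefSeq the promoters.

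The members, the lists and the rule for named genes were chosen with earlier results of these data known. The rule took all members, DFFB, DFFA, up to 3 genes per list with the smallest unadjusted p among those whose groups do not overlap, and the 3 genes most like RIGI and IFIH1 across libraries. The GC correction and the fit without both CAD-KO2+IR replicate 2 and sgVec+IR replicate 3 were chosen after seeing the data. For a gene with no count, 3 counts give the limit, which covers counting error only, since no molecular identifiers mark independent molecules. The code was tested on simulated data.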

Additional observations from a re-analysis of the deposited data

How the results depend on the processing

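No member was a DEG in any of 20 alternatives. Members at an unadjusted p under 0.05, 0 in the report's fit, were 4 in limma-voom with sample weights (37.1% of all genes), 5 without both CAD-KO2+IR replicate 2 and sgVec+IR replicate 3 (29.7%), and 1 after the correction for GC content (10.6%). Genes of the 7 lists called were 2 with sample weights (NLRP1 and IRF7), beside 5.15% of all genes. They were 1 without both libraries (NLRP1), and 2 with an unadjusted p in edgeR and in DESeq2 (NLRP1 and IFIT1). The shares of all genes at these last settings are not given here, so the counts say little about the lists. Members whose groups did not overlap were 1 with RLE scaling (10.3% of all genes), 7 without both libraries (57.3%), and 0 to 4 on leaving out 1 library at a time (13.1% to 45.4%). The log2 fold changes of RIGI, IFIH1, TRIM25 and ADAR kept their sign in 18 alternatives. That of DHX58 was 0.020 in limma-voom and −1.34 to 0.052 when single libraries were left out, where TLR3 ran from −0.70 to 0.18, EIF2AK2 from −0.066 to 0.28, MAVS from −0.23 to 0.13 and TICAM1 from −0.36 to 0.31. MAVS came to 0.013 in limma-voom, and TICAM1 to −0.25 with sample weights and −0.20 without both libraries. The replicate block turned MAVS to 0.016 and changed no call. Deviations of libraries with the same number correlated at 0.47, −0.54 and −0.38. CAD-KO2+IR replicate 2 and sgVec+IR replicate 3, which stand apart, carry different numbers and correlated at 0.55. These values therefore cannot show whether the numbers pair the libraries. The cause of these changes was not tested. The values of RIGI, DHX58 and ZBP1 rest on few counts.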
